A study of Mus musculus with 12 samples.

Results

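Corticoid signalling in the mouse heart was described through 9 genes: the 2 corticoid receptors *Nr3c1* and *Nr3c2*, the ligand-activating enzyme *Hsd11b1*, the chaperone cofactors *Fkbp4* and *Ptges3*, the corepressor *Ncor1*, and the coactivators *Ncoa1*, *Ncoa2* and *Ncoa3*. They were taken by gene symbol from a table of 33641 symbols, both as the sum of their transcripts and as the 80 transcript rows that make up those sums. Myocardium came from male C57BL/6 WT (wild-type) mice of about 16 weeks, as 12 samples in 4 groups of 3. The groups were sham surgery with vehicle, sham surgery with prednisone, myocardial infarction (MI) with vehicle, and MI with prednisone. Prednisone, a synthetic glucocorticoid, was given as an intraperitoneal injection of 1 mg/kg at lights-on, weekly for 6 weeks from week 2 after the operation, to mice of about 10 weeks, per the labels' protocols. Tissue was collected 24 hours after the last injection, so every treated heart was sampled a day after a dose. Titles number the samples 1 to 3 in each group and no label identifies single animals, so p-values measure the spread between these samples, which may in part be technical.

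The glucocorticoid receptor, encoded by *Nr3c1*, is held in the cytoplasm by an Hsp90 complex until a ligand binds, after which it enters the nucleus and regulates genes together with coactivators or corepressors. The mineralocorticoid receptor, encoded by *Nr3c2*, binds corticosterone as well as aldosterone, and cardiomyocytes largely lack the enzyme that would inactivate corticosterone. Prednisone itself is a prodrug: an 11-keto steroid that must be reduced to prednisolone, mainly by the enzyme that *Hsd11b1* encodes, before it binds the receptor.

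Values are TPM, the abundance of a transcript per length, scaled to a fixed total per library. They carry no read depth, so no counting error could be attached to them. All 6 cardiomyocyte markers were detected in every library, with a summed level between 20924 and 34966 TPM. MI vehicle replicate 3 stood apart: its median gene was 0.74 above the sham vehicle mean on the scale of log2(TPM + 1), against 0.14 and 0.25 in replicates 1 and 2. Mitochondrially encoded rows held 23.1% of the TPM in that library, 24.6% and 21.6% in MI prednisone replicates 1 and 2, and between 32.4% and 42.0% in the other 9. The 3 MI prednisone libraries shared a feature of their own, low values of transcripts that end far upstream of their gene's 3' end, which is described with the transcripts.

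In untreated sham hearts the cochaperone gene was by far the highest of the 9 and the mineralocorticoid receptor the lowest. *Fkbp4* stood at 175 ± 5.94 TPM (mean ± SD, n = 3 for this and all later group means), *Ncor1* at 39.5 ± 6.62, *Ptges3* at 25.7 ± 1.45 and *Nr3c1* at 16.1 ± 2.34 TPM. *Hsd11b1* followed at 12.03 ± 1.29 TPM, *Ncoa2* at 8.15 ± 1.32, *Ncoa3* at 6.29 ± 0.471, *Ncoa1* at 5.89 ± 1.01 and *Nr3c2* at 4.71 ± 0.477 TPM. Neighbours in that order did not overlap between libraries, except *Ncoa3* and *Ncoa1*. The order was kept in sham hearts with prednisone apart from an exchange of *Ncoa1* and *Ncoa3*, whose values overlapped. In MI hearts with prednisone it differed at several places. *Ptges3* stood above *Ncor1* without overlap, but its lowest library (29.67 TPM) lay only just above the highest of *Ncor1* (29.66 TPM). *Hsd11b1* stood above *Nr3c1* without overlap, and *Ncoa2* had dropped from first to last of the 3 coactivators, overlapping *Ncoa1*.

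**Figure D1:**
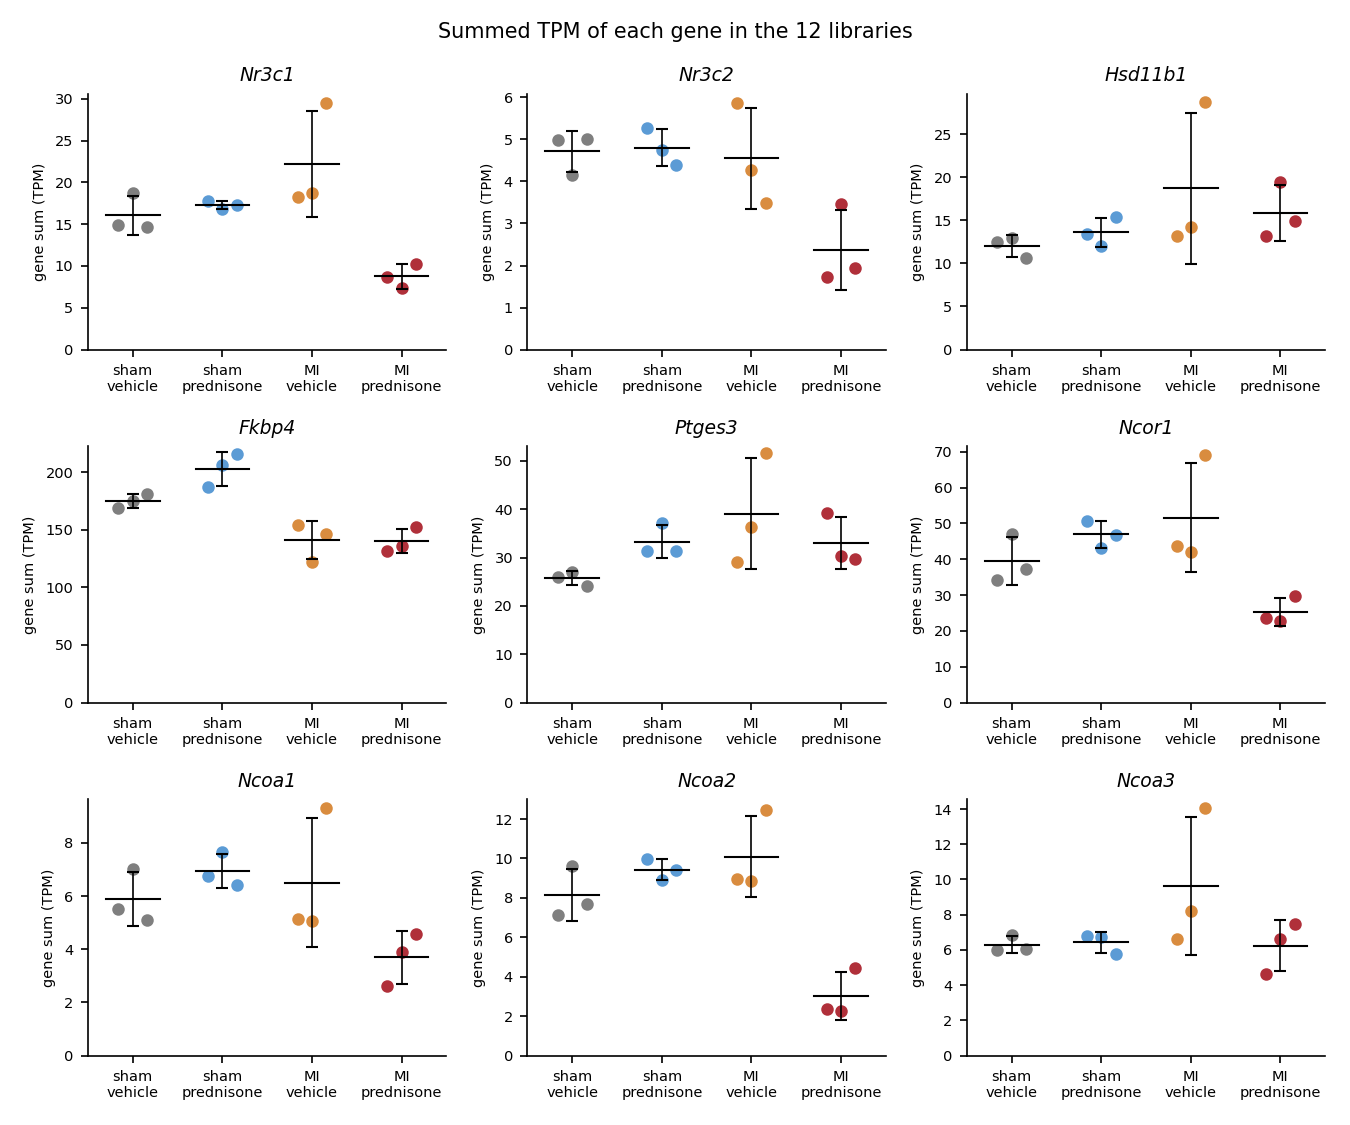
Summed TPM of each of the 9 genes (y axis, linear, from 0) in the 4 groups (x axis); points are the 3 libraries of a group, drawn in the order of their numbers, the horizontal line is the mean and the bar 1 SD. The MI prednisone libraries lie below all other libraries for *Nr3c1*, *Nr3c2*, *Ncor1*, *Ncoa1* and *Ncoa2*, and MI vehicle replicate 3 is the highest library for *Nr3c1*, *Hsd11b1*, *Ptges3*, *Ncor1*, *Ncoa1*, *Ncoa2* and *Ncoa3*.

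Across the comparisons of the design, the receptors, the corepressor and 2 of the coactivators were low in infarcted hearts with prednisone, and no gene of the 9 was called in either comparison that left this group out. Calls were made with limma at an adjusted p under 0.05 over all 13158 genes tested, and all 9 genes passed the filter on low values. For MI against sham with vehicle, 0 of 9 were called, where 16.0% of all genes were; 3 of the 9 had an unadjusted p under 0.05. With prednisone, MI against sham called 6 of 9, all lower, against 16.8% of all genes in either direction and 14.1% lower. Prednisone against vehicle in MI called 5 of 9, all lower, where 37.4% of all genes were called and 34.9% were lower. Prednisone against vehicle in sham hearts called 0 of 9, with 0.114% of all genes called and none of the 9 at an unadjusted p under 0.05. The difference between the prednisone effects in MI and in sham hearts, the interaction, called 3 of 9, all lower, against 21.3% of all genes and 20.7% lower. The groups failed to overlap for 3 of 9 genes in MI against sham with vehicle (45.0% of all genes), 6 of 9 with prednisone, all lower (45.2%, lower 32.2%), 5 of 9 for prednisone in MI, all lower (46.2%, lower 42.6%) and 2 of 9 in sham hearts (18.2%). These comparisons share groups and are not independent of each other.

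The median log2 change of the 9 genes is read beside the median of all genes tested, since the whole distribution moved in some comparisons. It was 0.35 against 0.39 for MI with vehicle, -0.78 against -0.06 for MI with prednisone, -0.66 against -0.41 for prednisone in MI, 0.20 against 0.07 for prednisone in sham hearts, and -0.76 against -0.48 for the interaction.

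**Figure D2:**
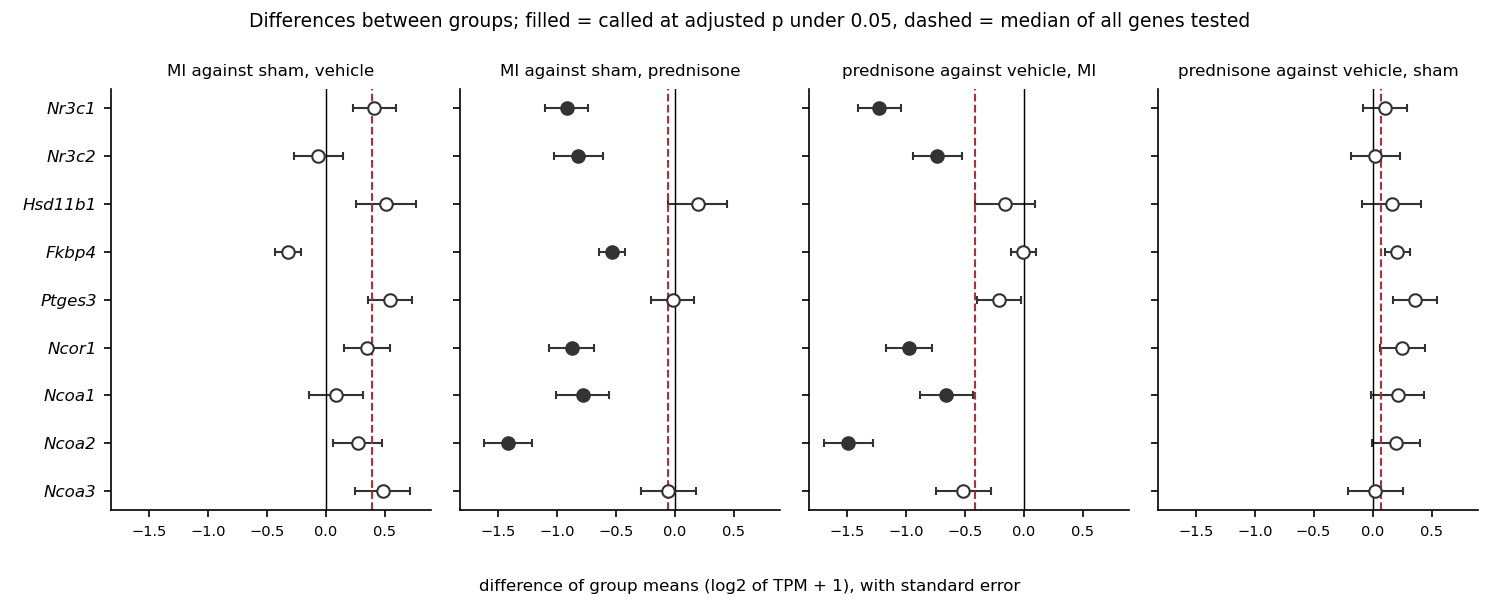
Difference of group means of log2(TPM + 1) for each gene (x axis) in 4 comparisons (panels), with the standard error; filled points passed limma at an adjusted p under 0.05, open points did not, and the dashed line is the median of all genes tested. Filled points occur only in the comparisons that involve the MI prednisone group, 6 in MI against sham with prednisone and 5 in prednisone against vehicle in MI, and all lie left of 0.

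The receptor genes were both lower in infarcted hearts that had received prednisone. *Nr3c1* (ENSMUSG00000024431.15, chromosome 18, 39410545 to 39519421, minus strand, GRCm38) was at 14.9, 18.8 and 14.6 TPM in sham hearts with vehicle and at 17.7, 16.9 and 17.3 TPM in sham hearts with prednisone. It was at 18.2, 18.8 and 29.5 TPM in MI hearts with vehicle and at 8.72, 7.32 and 10.3 TPM in MI hearts with prednisone. The last 3 libraries were the lowest of the 12, and MI vehicle replicate 3 was the highest. With prednisone in MI the log2 change was -1.22 (SE 0.18, limma adjusted p = 0.00141), a fold of 0.43 on the scale of TPM + 1. For MI against sham with prednisone it was -0.92 (limma adjusted p = 0.00757), and in sham hearts prednisone gave 0.11 (SE 0.18, limma adjusted p = 1). The interaction was -1.33 (SE 0.26, limma adjusted p = 0.0101). Without MI vehicle replicate 3, which holds the highest value, the change with prednisone in MI was -1.01 and the gene was still called.

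*Nr3c2* (ENSMUSG00000031618.13, chromosome 8, 76899442 to 77245012, plus strand) was at 4.98, 4.16 and 5.00 TPM with vehicle and 5.28, 4.74 and 4.39 TPM with prednisone in sham hearts. Infarcted hearts had 5.87, 4.28 and 3.50 TPM with vehicle and 1.71, 3.46 and 1.94 TPM with prednisone. The MI prednisone libraries were again the 3 lowest, though replicate 2 lay only just under MI vehicle replicate 3. The log2 change with prednisone in MI was -0.73 (SE 0.21, limma adjusted p = 0.0197), and for MI against sham with prednisone -0.82 (SE 0.21, limma adjusted p = 0.0227). The call in MI was lost without MI prednisone replicate 1 (-0.59, limma adjusted p = 0.0798) or replicate 3 (-0.65, limma adjusted p = 0.0627). That against sham was lost without either of these libraries and without any single sham prednisone library, with limma adjusted p between 0.0551 and 0.101. Its interaction of -0.76 was not called (limma adjusted p = 0.0872). The ratio of *Nr3c1* to *Nr3c2* overlapped between all groups, with means of 3.47 ± 0.899, 3.62 ± 0.295, 5.31 ± 2.79 and 4.17 ± 1.78 in sham vehicle, sham prednisone, MI vehicle and MI prednisone. The sex steroid receptor genes *Esr1*, *Esr2* and *Pgr* stood at or below 1.52 TPM in every library and did not reach the filter.

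Within *Nr3c1*, 3 of 8 transcript rows carried most of the sum, and they did not move alike. *Nr3c1-204* and *Nr3c1-203* both have 2376 coding bases, share 7 exons exactly and end within 2 bases of the gene's 3' end. The first exon of 204, at 39485998 to 39487245, is one of the shared exons. *Nr3c1-203* has a further exon upstream of it, at 39490568 to 39490674. The models differ only by that exon and by 2 bases at the 3' end, and 204 has no bases that 203 lacks. *Nr3c1-208* starts at another first exon and is an incomplete model that stops 4853 exonic bases before that end. Its exon at 39428614 to 39428780 is 3 bases longer than the same exon of *Nr3c1-203*, whose boundary is at 39428617.

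*Nr3c1-204* was at 6.97, 5.96 and 5.09 TPM in sham vehicle, 6.29, 5.10 and 11.1 in MI vehicle, and 6.71, 5.57 and 6.22 TPM in MI prednisone, and was not called in any comparison. *Nr3c1-203* was at 7.03, 8.95 and 10.6 TPM in MI vehicle and 1.84, 1.33 and 2.71 TPM in MI prednisone, which gave -1.75 on the log2 scale (SE 0.23, limma adjusted p = 0.000499). *Nr3c1-208* was at 3.11, 4.02 and 4.68 TPM in MI vehicle and 0.17, 0.27 and 0.46 TPM in MI prednisone, which gave -1.92 (SE 0.23, limma adjusted p = 0.000279). Thus 203 and 208 were called, while 204, the most abundant on average over all libraries, differed by -0.18 between these groups (limma adjusted p = 0.556). The share of 204 in the sum was 34.5%, 27.1% and 37.5% in MI vehicle and 77.0%, 76.2% and 60.7% in MI prednisone, and passed the test of shares (limma adjusted p = 0.00278). That of 208 was 17.1%, 21.4% and 15.9% against 1.90%, 3.65% and 4.45% (limma adjusted p = 0.00441). In sham hearts 203 had a mean share of 23.1% with prednisone and 35.3% with vehicle, without overlap, but this difference did not pass (limma adjusted p = 0.656).

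*Nr3c2-203*, the main *Nr3c2* transcript with 59.1% of the sum on average, followed its gene, with 2.83, 2.25 and 2.53 TPM in MI vehicle and 1.27, 1.66 and 1.31 TPM in MI prednisone (log2 change -0.55, limma adjusted p = 0.0236). No share of an *Nr3c2* transcript was called, and the short *Nr3c2-207* of 270 bases ranged from 0 to 1.81 TPM.

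The gene of the activating enzyme, unlike those of the receptors, was called in no comparison. *Hsd11b1* (ENSMUSG00000016194.14, chromosome 1, 193221634 to 193264075, minus strand) was at 12.5, 13.0 and 10.6 TPM with vehicle and 13.4, 12.02 and 15.4 TPM with prednisone in sham hearts. With MI the values were 13.1, 14.2 and 28.8 TPM with vehicle and 13.2, 19.4 and 14.9 TPM with prednisone. All MI vehicle libraries lay above all sham vehicle libraries, replicate 1 only by a narrow margin. The log2 difference of 0.51 (SE 0.25) was not called (limma adjusted p = 0.139), nor was that of -0.16 for prednisone in MI (SE 0.25, limma adjusted p = 0.64) or 0.16 in sham hearts (SE 0.25). Without MI vehicle replicate 3 the first of these was 0.17. The ratio of *Hsd11b1* to *Nr3c1* was higher in MI prednisone, at 1.51, 2.66 and 1.45, than in the other 9 libraries, which ranged from 0.692 to 0.975. With 3 samples against 3 an exact two-sided permutation test cannot give a p below 0.1, so this ratio was not tested.

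*H6pd*, which makes the cofactor NADPH that drives the reductive direction of this enzyme in the endoplasmic reticulum, did fall. It was at 15.4, 12.4 and 26.5 TPM in MI vehicle and 6.30, 8.95 and 7.60 TPM in MI prednisone (log2 change -1.09, SE 0.23, limma adjusted p = 0.00526), with an interaction of -1.02 (limma adjusted p = 0.0467). The interaction of *H6pd* was lost when any single library outside MI vehicle was left out, with limma adjusted p up to 0.112. *Hsd11b2*, which runs the opposite reaction and protects the mineralocorticoid receptor in the kidney, had at most 0.21 TPM in any library. Of 13 genes listed for synthesis, activation and transport of corticoids, 4 reached the filter. They were *H6pd*, the efflux pump genes *Abcb1a* and *Abcb1b*, and *Star*, the last 3 named after their values were seen. All 4 were lower with prednisone in MI, where 34.9% of all genes were. Only *H6pd* among them had both a mean of at least 5 TPM and no overlap between the groups in that comparison. The genes of the final steps of corticosterone and aldosterone synthesis, *Cyp11b1* and *Cyp11b2*, and that of the plasma carrier, *Serpina6*, were listed at 0 in every library.

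The 3 *Hsd11b1* transcripts described here start at different places. *Hsd11b1-205*, from the distal start at 193264075, had 8.10, 10.4 and 22.7 TPM in MI vehicle and 11.2, 10.5 and 7.79 TPM in MI prednisone. *Hsd11b1-201*, from 193242629, had 4.98, 3.76 and 4.43 against 1.68, 3.89 and 2.06 TPM. Neither was called. *Hsd11b1-203*, whose first exon starts at 193241598 and whose coding part is shorter (786 against 876 bases), was listed at 0 in all 6 sham libraries and in MI vehicle replicates 1 and 2. It had 0.86 TPM in MI vehicle replicate 3 and 0.32, 4.75 and 5.02 TPM in MI prednisone, where its share was 2.39%, 24.5% and 33.7%. The share passed in MI prednisone against MI vehicle (limma adjusted p = 0.0274) and against sham prednisone (limma adjusted p = 0.0139), although MI prednisone replicate 1 lay below MI vehicle replicate 3. Its level did not reach the filter and was not tested. Its mean share over all libraries, 5.30%, passed the minimum of 5% only through MI prednisone replicates 2 and 3. The test of its share is therefore not independent of the group where it is high, and no conclusion is drawn from it.

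Of the chaperone cofactors, *Fkbp4* stood lower in infarcted than in sham hearts and *Ptges3* was called in no comparison. *Fkbp4* (ENSMUSG00000030357.10, chromosome 6, 128429735 to 128438677, minus strand) encodes FKBP52, an Hsp90-bound immunophilin that favours transport of the receptor to the nucleus. It was at 169, 175 and 181 TPM with vehicle and 187, 207 and 216 TPM with prednisone in sham hearts. In MI hearts it was at 154, 122 and 147 TPM with vehicle and 132, 136 and 152 TPM with prednisone. Every MI library lay below every sham library; for MI against sham with vehicle, 4.17% of all genes were lower without overlap. MI against sham gave a log2 change of -0.32 with vehicle (SE 0.11, limma adjusted p = 0.0611) and -0.53 with prednisone (SE 0.11, limma adjusted p = 0.00762). Since the median gene was 0.39 higher in MI with vehicle, *Fkbp4* lay 0.71 below the median there, and it was called after median-ratio rescaling of the libraries (-0.76, limma adjusted p = 0.0299), while the call with prednisone was lost under that rescaling (-0.42, limma adjusted p = 0.08). Prednisone gave -0.0027 in MI (SE 0.11, limma adjusted p = 0.987) and 0.21 in sham hearts (SE 0.11, limma adjusted p = 1).

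Between MI and sham hearts with prednisone, a short model, *Fkbp4-204*, was called and the full transcript was not. *Fkbp4-201* is the full transcript of 10 exons and 1374 coding bases. *Fkbp4-204* begins at its own first exon, has 44 bases that no exon of 201 holds, shares the rest of its bases with 201 and stops inside a coding exon, at position 128433762 of chromosome 6 (minus strand, GRCm38), 1808 exonic bases before the gene's 3' end. *Fkbp4-201* also has a first exon of its own, upstream at 128438406 to 128438677. The stretch of 201 around the point where 204 stops is shown because it marks the end of the shorter model. Bases in lower case belong to both, and the capitals are the next 40 bases of 201, beyond the end of 204.
Fkbp4-201: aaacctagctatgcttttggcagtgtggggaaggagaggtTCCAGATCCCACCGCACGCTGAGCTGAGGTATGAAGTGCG
Fkbp4-204: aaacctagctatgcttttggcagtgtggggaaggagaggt

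*Fkbp4-204* was at 37.3, 39.8 and 42.4 TPM with vehicle and 38.3, 45.9 and 53.8 TPM with prednisone in sham hearts. Infarcted hearts had 35.6, 21.3 and 26.1 TPM with vehicle and 5.22, 4.76 and 7.90 TPM with prednisone. Those last 3 libraries were far below the rest, with a log2 change of -2.04 for prednisone in MI (SE 0.21, limma adjusted p = 0.000151) and -2.77 for MI against sham with prednisone (SE 0.21, limma adjusted p = 2.61e-05). Its share of the *Fkbp4* sum was between 17.4% and 25.0% in the other 9 libraries and 3.95%, 3.49% and 5.18% in MI prednisone (limma adjusted p = 0.00172 against MI vehicle). *Fkbp4-201* alone, at 134 ± 3.18, 154 ± 6.41, 113 ± 10.5 and 133 ± 9.06 TPM in sham vehicle, sham prednisone, MI vehicle and MI prednisone, was not called in any comparison. For MI against sham with prednisone it gave -0.21 (SE 0.10, limma adjusted p = 0.15).

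*Ptges3* (ENSMUSG00000071072.12, chromosome 10, 128058954 to 128077272, plus strand) encodes p23, the cochaperone that stabilises the ligand-binding state of the receptor. It was at 26.0, 26.9 and 24.1 TPM with vehicle and 31.4, 37.1 and 31.3 TPM with prednisone in sham hearts. With MI the values were 29.1, 36.4 and 51.6 TPM with vehicle and 39.1, 30.2 and 29.7 TPM with prednisone. Sham vehicle was the lowest group and overlapped none of the other 3, which overlapped each other. The log2 difference from sham vehicle was 0.55 for MI (SE 0.19, limma adjusted p = 0.0618) and 0.36 for prednisone (SE 0.19, limma adjusted p = 1). Without MI vehicle replicate 1, MI against sham with vehicle called *Ptges3* (0.73, limma adjusted p = 0.0121), *Fkbp4* (-0.39, limma adjusted p = 0.0251), *Hsd11b1* (0.71, limma adjusted p = 0.0494) and *Ncoa3* (0.69, limma adjusted p = 0.0349), where 42.8% of all genes were called. That set leaves 2 MI vehicle libraries, of which replicate 3 is the one that stands apart. Without replicate 3 in its place, *Ptges3* was at 0.33 and *Ncoa3* at 0.20, neither called.

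The other chaperones and immunophilins were read from a list of 18 genes, all of which were tested. With prednisone in MI, 5 of the 18 were lower and none higher, where 34.9% of all genes were lower, with a list median of -0.19 against -0.41 for all genes. *St13*, the Hsp70-interacting cochaperone Hip, fell by 0.76 on the log2 scale with prednisone in MI (limma adjusted p = 0.0074), with an interaction of -1.19 (limma adjusted p = 0.0115). *Hspa4*, of the Hsp110 family, had an interaction of -0.70 (limma adjusted p = 0.0435), which 9 of the 12 libraries ended when left out. In sham hearts none of the 18 was called with prednisone. *Hsp90ab1*, the constitutive Hsp90, was at 352, 364 and 350.5 TPM in sham vehicle and 417, 488 and 629 TPM in MI vehicle, a rise of 0.50 (SE 0.13, limma adjusted p = 0.0327). Without MI vehicle replicate 3 it was 0.34 (limma adjusted p = 0.0649), and each single sham vehicle library or MI vehicle replicate 2, left out, also ended the call. The inducible *Hsp90aa1* was at 43.4, 53.2 and 46.5 TPM in sham vehicle and 61.8, 87.3 and 176 TPM in MI vehicle, a difference of 1.03 that was not called (limma adjusted p = 0.0502).

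*Fkbp5* encodes FKBP51, the immunophilin that opposes FKBP52 and is itself a receptor target. It was at 3.50, 5.51 and 4.73 TPM with vehicle and 5.09, 7.63 and 5.34 TPM with prednisone in sham hearts. In MI hearts it was at 7.40, 7.82 and 32.7 TPM with vehicle and 3.81, 3.46 and 4.23 TPM with prednisone. MI vehicle replicate 3 was by far the highest library. The change with prednisone in MI was -1.49 (SE 0.43, limma adjusted p = 0.0198), and without that library it was -0.84 (limma adjusted p = 0.00781). The call of *Fkbp5* was lost without MI prednisone replicate 1 (limma adjusted p = 0.0537) or 2 (limma adjusted p = 0.057). The ratio of *Fkbp4* to *Fkbp5* was 20.8, 15.6 and 4.49 in MI vehicle, below all other libraries, which ranged from 27.1 to 48.4. In MI prednisone it was 34.6, 39.5 and 36.0, within the range of the sham libraries.

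The corepressor gene fell with prednisone in infarcted hearts. *Ncor1* (ENSMUSG00000018501.17, chromosome 11, 62316426 to 62458541, minus strand) encodes a scaffold that recruits histone deacetylase to nuclear receptors. It was at 34.4, 47.0 and 37.2 TPM with vehicle and 50.8, 43.3 and 46.8 TPM with prednisone in sham hearts. Infarcted hearts had 43.6, 41.9 and 69.1 TPM with vehicle and 23.6, 22.6 and 29.7 TPM with prednisone. The MI prednisone libraries were the 3 lowest, and the other 3 groups overlapped. With prednisone in MI the log2 change was -0.97 (SE 0.19, limma adjusted p = 0.00393), and MI against sham with prednisone gave -0.87 (SE 0.19, limma adjusted p = 0.0112). The interaction was -1.23 (SE 0.27, limma adjusted p = 0.0141). Without MI vehicle replicate 3 the change with prednisone in MI was -0.74 and still called. The call against sham was narrowly lost without MI prednisone replicate 1 (-0.83, limma adjusted p = 0.0501) or 2 (-0.80, limma adjusted p = 0.0525).

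The changes of the 25 *Ncor1* rows went in part with where in the gene they lie. *Ncor1-212*, a model of the 5' part that stops 7846 exonic bases before the gene's 3' end, had 3.94, 5.26 and 7.55 TPM in MI vehicle and 0.41, 0.09 and 0.84 TPM in MI prednisone (log2 change -2.18, SE 0.27, limma adjusted p = 0.00034). *Ncor1-208*, *Ncor1-211* and *Ncor1-222*, which also stop far upstream, fell by 1.00, 1.63 and 1.36 on the log2 scale. So did *Ncor1-221*, a retained intron listed at 0 in all 3 MI prednisone libraries. Long rows fell too. *Ncor1-201* (-1.42, limma adjusted p = 0.0499, with 0.02 to 6.22 TPM in the other 9 libraries) is a complete model of 46 exons that reaches the gene's 3' end. *Ncor1-205* (-1.04, limma adjusted p = 0.0338) has 45 exons and ends 1371 exonic bases before it. *Ncor1-216*, a fragment of the last 3 exons that lacks its 5' end, went the other way, from 3.52, 2.56 and 1.15 TPM in MI vehicle to 6.45, 6.62 and 5.27 TPM in MI prednisone (log2 change 1.12, SE 0.29, limma adjusted p = 0.0131). Its share was between 1.66% and 11.0% in the other 9 libraries and 27.4%, 29.2% and 17.8% in MI prednisone (limma adjusted p = 0.00632 against MI vehicle). It was the only transcript of the 9 genes whose level was called higher in either comparison of the MI prednisone group with another group. *Ncor1-213*, the most abundant row, lacks its 5' end too, and its level was not called (-0.38, limma adjusted p = 0.091), though its share was higher in MI than in sham hearts with prednisone (limma adjusted p = 0.00735). *Ncor1-219*, a retained intron with 11.0% of the sum on average, was called in neither measure.

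Of 11 other corepressor genes tested, 5 were lower with prednisone in MI and none higher, where 34.9% of all genes were lower, with a median of -0.45 against -0.41 for all genes. *Tbl1xr1* and *Sin3a*, which belong to the complexes that work with NCoR, fell by 1.37 and 1.14 on the log2 scale (limma adjusted p = 0.00327 and 0.00272), with interactions of -1.50 and -1.38 (limma adjusted p = 0.0195 and 0.0122). That of *Tbl1xr1* was lost without sham vehicle replicate 1 or 3, with limma adjusted p up to 0.0583.

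Among the p160 coactivators, which bind the ligand-bound receptor and bring in histone acetyltransferases, *Ncoa2* fell most, *Ncoa1* fell by a smaller amount and *Ncoa3* was not called. *Ncoa2* (SRC-2; ENSMUSG00000005886.14, chromosome 1, 13139105 to 13374083, minus strand) was at 7.12, 9.63 and 7.70 TPM with vehicle and 9.99, 8.92 and 9.39 TPM with prednisone in sham hearts. With MI the values were 8.97, 8.84 and 12.5 TPM with vehicle and 2.36, 2.27 and 4.44 TPM with prednisone. All 3 MI prednisone libraries lay well below the other 9. The log2 change with prednisone in MI was -1.49 (SE 0.21, limma adjusted p = 0.00104), a fold of 0.36 on the scale of TPM + 1, and -1.41 for MI against sham with prednisone (SE 0.21, limma adjusted p = 0.00213). The interaction of -1.69 (SE 0.29, limma adjusted p = 0.00746) was the largest of the 9 genes.

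*Ncoa1* (SRC-1; ENSMUSG00000020647.10, chromosome 12, 4247362 to 4477182, minus strand) was at 5.53, 7.02 and 5.11 TPM with vehicle and 6.75, 7.65 and 6.42 TPM with prednisone in sham hearts. In MI hearts it was at 5.13, 5.07 and 9.30 TPM with vehicle and 2.61, 3.89 and 4.57 TPM with prednisone. The MI prednisone group did not overlap any other, but replicate 3 came close to MI vehicle replicate 2. The log2 change with prednisone in MI was -0.66 (SE 0.23, limma adjusted p = 0.042) and that against sham with prednisone -0.78 (SE 0.23, limma adjusted p = 0.0383). The first call was lost without MI vehicle replicate 3 (-0.40, limma adjusted p = 0.115), MI prednisone replicate 1 (-0.48, limma adjusted p = 0.156) or replicate 2 (-0.70, limma adjusted p = 0.072). The second was lost without either of those MI prednisone libraries or any single sham prednisone library, with limma adjusted p between 0.0837 and 0.152.

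*Ncoa3* (SRC-3; ENSMUSG00000027678.17, chromosome 2, 165992636 to 166073242, plus strand) was at 6.01, 6.84 and 6.03 TPM with vehicle and 6.80, 6.73 and 5.74 TPM with prednisone in sham hearts. Infarcted hearts had 6.64, 8.19 and 14.1 TPM with vehicle and 4.63, 6.64 and 7.48 TPM with prednisone. Apart from MI vehicle replicate 3 the groups overlapped widely. The difference of -0.51 with prednisone in MI (SE 0.23) was not called (limma adjusted p = 0.1), and it was -0.23 without that library.

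The balance among the 3 coactivators thus differed in the MI prednisone libraries. *Ncoa2* made up 40.0 ± 1.62% of their sum in sham vehicle, 41.4 ± 2.78% in sham prednisone, 39.3 ± 4.27% in MI vehicle and 23.1 ± 4.78% in MI prednisone. *Ncoa3* made up 31.1 ± 1.75%, 28.1 ± 1.30%, 36.1 ± 3.71% and 48.5 ± 3.26%. Neither MI prednisone range overlapped any other group, whereas the share of *Ncoa1* stayed between 23.0% and 32.8% in all 12 libraries. The sum of the 3 genes was 20.3 ± 2.74, 22.8 ± 1.08, 26.2 ± 8.34 and 13.0 ± 3.44 TPM. The ratio of *Ncor1* to *Ncoa2* was even across sham and MI vehicle libraries, between 4.74 and 5.55, and was 9.98, 9.97 and 6.68 in MI prednisone. The ratio of *Ncor1* to all 3 coactivators summed overlapped between the groups, with means of 1.94, 2.06, 1.98 and 2.01. These sums include transcripts that end over 500 exonic bases before the gene's 3' end. Such transcripts held 40.9 ± 3.23% of *Ncoa2* in MI vehicle and 14.9 ± 8.48% in MI prednisone. For *Ncoa3* they held 47.5 ± 8.42% and 39.0 ± 17.7%, and for *Ncor1* 75.7 ± 0.960% and 73.2 ± 1.49%. Their part in the balance and in the ratios was not tested.

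Transcripts of *Ncoa2* and *Ncoa3* differ by small pieces of coding sequence, which are shown because their rows moved apart. *Ncoa2-201* has a coding exon of 207 bases at chr1:13164896-13165102 (minus strand, GRCm38) that *Ncoa2-202* skips without a change of reading frame. The exon is in capitals between 20 flanking bases on each side, and the line for 202 joins those flanks.
Ncoa2-201: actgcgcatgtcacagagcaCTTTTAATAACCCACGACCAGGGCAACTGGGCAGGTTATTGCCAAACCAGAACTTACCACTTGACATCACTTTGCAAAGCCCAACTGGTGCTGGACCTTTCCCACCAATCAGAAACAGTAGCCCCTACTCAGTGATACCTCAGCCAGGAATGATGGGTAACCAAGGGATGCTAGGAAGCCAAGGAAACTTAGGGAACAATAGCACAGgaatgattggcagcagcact
Ncoa2-202: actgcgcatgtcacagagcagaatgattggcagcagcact
*Ncoa3-201* and *Ncoa3-202* differ at the start of the exon that ends at position 166068548 of chromosome 2 (plus strand, GRCm38). It starts at 166068329 in 201 and 3 bases later, at 166068332, in 202, and the 3 bases in capitals are those that 202 lacks.
Ncoa3-201: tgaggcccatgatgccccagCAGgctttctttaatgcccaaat
Ncoa3-202: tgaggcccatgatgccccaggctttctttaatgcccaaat

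In both pairs the models also end at different places, so the coding difference and the 3' end cannot be told apart in these values. *Ncoa2-201* ends 3370 exonic bases before the gene's 3' end and *Ncoa3-202* ends 1772 before it, whereas *Ncoa2-202* and *Ncoa3-201* reach to within 54 bases. *Ncoa2-201* was at 1.87, 2.28 and 2.59 TPM in sham vehicle, 2.31, 2.81 and 4.48 in MI vehicle, and 0.05, 0.26 and 0.38 TPM in MI prednisone. Its log2 change with prednisone in MI was -1.75 (SE 0.21, limma adjusted p = 0.000313) and its share went from 25.8%, 31.8% and 36.0% to 2.27%, 11.3% and 8.48% (limma adjusted p = 0.00399). *Ncoa2-202* fell too, by 0.92 (SE 0.20, limma adjusted p = 0.0068), from 4.48, 5.50 and 6.21 to 2.24, 1.69 and 3.32 TPM, while its share rose (limma adjusted p = 0.017). *Ncoa3-202* was at 2.16, 1.81 and 5.38 TPM in MI vehicle and 0.27, 0.22 and 0.97 TPM in MI prednisone (log2 change -1.41, SE 0.31, limma adjusted p = 0.00608). *Ncoa3-201* stood at 3.78, 4.73 and 6.02 TPM against 3.57, 4.24 and 3.14 TPM and was not called, so that for *Ncoa3* a transcript moved where the sum did not pass. Of *Ncoa1*, the main row *Ncoa1-201* fell by 0.61 (SE 0.20, limma adjusted p = 0.0378), and *Ncoa1-209*, which ends 1821 exonic bases early, went from a share of 12.7%, 12.8% and 18.9% to 0.65%, 0.99% and 4.94% (limma adjusted p = 0.0079). The share of *Ncoa1-207*, a fragment that lacks its 5' end, went from 7.62%, 6.12% and 13.0% to 20.9%, 37.4% and 19.2% (limma adjusted p = 0.0323). *Ncoa2-203* was called in MI against sham with prednisone only (-0.96, limma adjusted p = 0.0355), and *Ncoa3-203*, a retained intron, in no comparison.

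**Figure D3:**
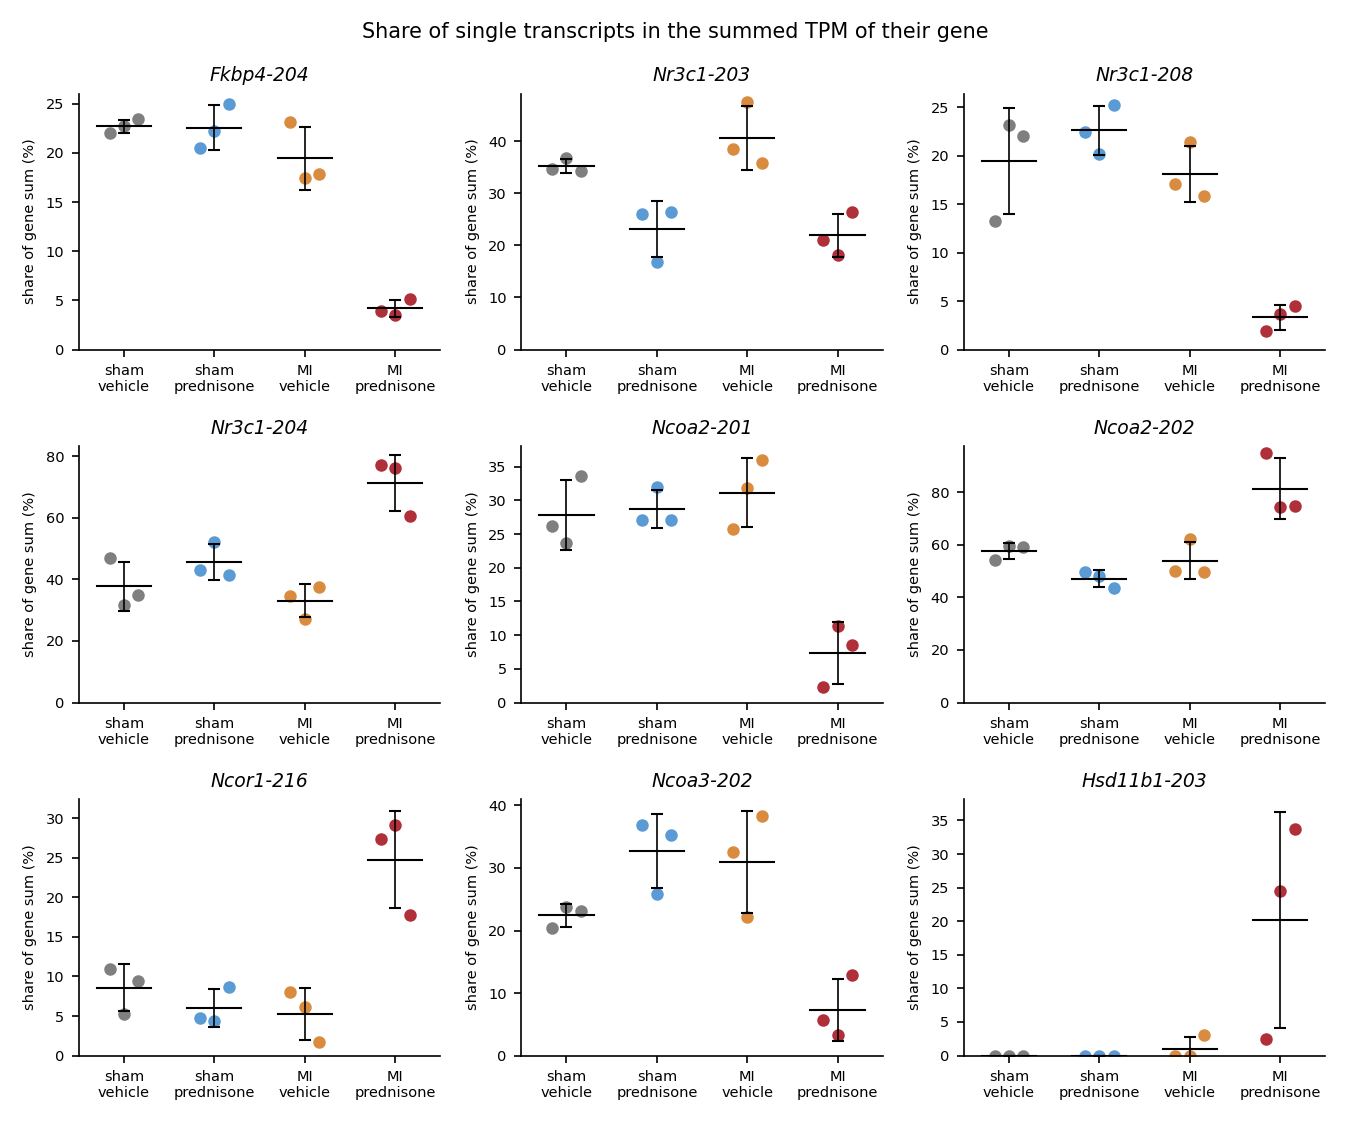
Share of 9 single transcripts in the summed TPM of their gene (y axis, percent, from 0) in the 4 groups (x axis); points are libraries, the line is the mean and the bar 1 SD. *Fkbp4-204*, *Nr3c1-208*, *Ncoa2-201* and *Ncoa3-202* are lowest in the 3 MI prednisone libraries, *Nr3c1-204*, *Ncoa2-202* and *Ncor1-216* are highest there, and *Hsd11b1-203* is at 0 in 8 of the 9 other libraries.

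Of 19 other coactivator genes tested, 10 were lower with prednisone in MI and none higher, beside 34.9% lower of all genes, with a median of -0.57 against -0.41 for all genes. *Ncoa4* and *Ep300*, the latter the acetyltransferase that p160 proteins recruit, fell by 1.30 and 1.18 on the log2 scale (limma adjusted p = 0.00209 and 0.00568), with interactions of -1.52 and -1.34 (limma adjusted p = 0.0114 and 0.0259). Leaving out 1 library ended the interaction call of *Ep300* for 7 of the 12, with limma adjusted p up to 0.0687. *Ppargc1a*, a coactivator of oxidative metabolism, fell by 1.66 in MI against sham with prednisone (limma adjusted p = 0.00116). *Smarca2*, a chromatin remodelling ATPase, rose by 0.58 in MI against sham with vehicle (limma adjusted p = 0.0398), a call lost without MI vehicle replicate 3 (0.39, limma adjusted p = 0.0794) or any single sham vehicle library.

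Of the 80 transcript rows, 37 passed the filter for levels, 29 entered the test of shares and 7 were listed at 0 in all libraries. With prednisone in MI, 16 levels were called (15 lower, 1 higher, in 7 genes) where 33.0% of all 27769 transcripts were called and 27.1% lower, and 13 shares (6 higher, 7 lower) where 20.9% of 26952 were. MI against sham with prednisone called 15 levels (14 lower, 1 higher) against a background of 22.3% (15.6% lower), and 12 shares against 22.8%. The interaction called 11 levels, 10 of them lower (18.7% of all transcripts, 15.8% lower), and 9 shares (11.0%). Neither MI against sham with vehicle (2.84% of levels, 0.0594% of shares) nor prednisone in sham hearts (0.054% and 0.0186%) called a level or a share of the 9 genes.

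The pattern of which rows fell ran through the whole libraries and not through these genes alone. Among 1701 tested transcripts whose models lack only their 3' end, the median log2 difference from sham vehicle was -0.68, -0.64 and -0.47 in MI prednisone replicates 1 to 3. The other 9 libraries ranged from -0.10 to 0.47. For 793 models that lack only their 5' end it was 0.37, 0.53 and 0.24 in MI prednisone, with the others from -0.01 to 0.42. For 15301 complete models it was -0.08, -0.04 and -0.08 in MI prednisone, and for 2983 retained introns 0.25, 0.58 and 0.19. With prednisone in MI, 40.1% of the first class were called lower, 10.5% of the second and 32.6% of the third. Of the 9 genes, *Nr3c1*, *Fkbp4* and *Ncor1* moved with this pattern. Models lacking their 3' end held 23.9 ± 1.19% of *Nr3c1* in MI vehicle and 6.64 ± 5.32% in MI prednisone. They held 19.9 ± 3.91% and 4.77 ± 1.17% of *Fkbp4*, and 30.1 ± 3.33% and 7.31 ± 1.87% of *Ncor1*. For *Nr3c2* these groups overlapped, at 22.6 ± 20.1% and 14.2 ± 24.5%. *Ptges3* and *Ncoa3* have no such models, and those of *Hsd11b1*, *Ncoa1* and *Ncoa2* were at 0 in most libraries. Whether the pattern accounts for any transcript result was not tested. The labels give no RNA quality or batch by library, so batch and group cannot be told apart.

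**Figure D4:**
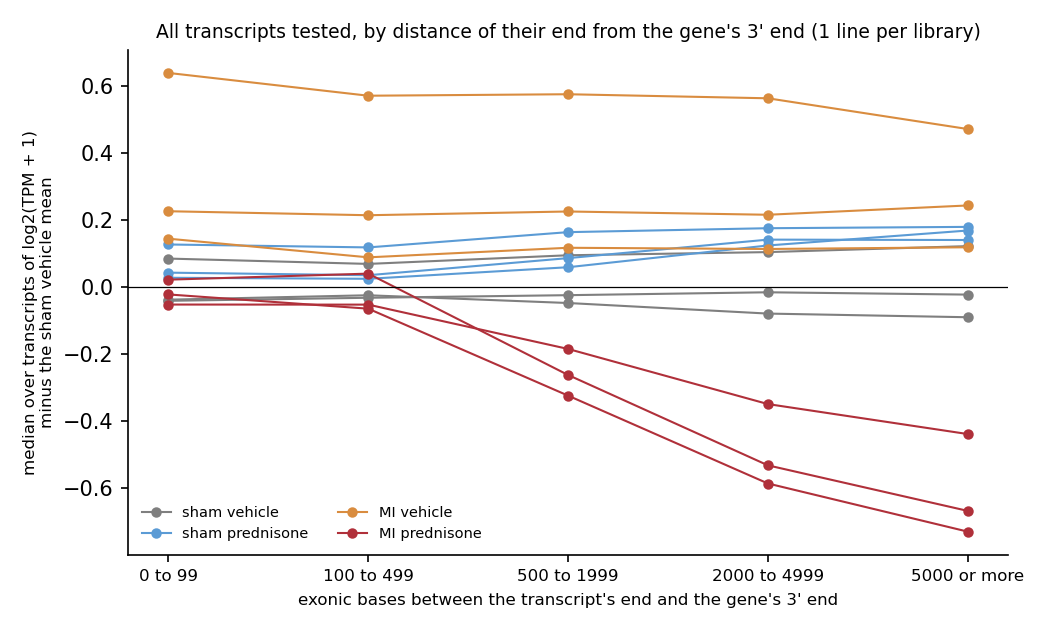
Median over tested transcripts of log2(TPM + 1) minus the sham vehicle mean (y axis), for 5 classes of exonic distance between a transcript's end and its gene's 3' end (x axis, bases); each line is a library, coloured by group. The 3 MI prednisone lines descend with distance, to -0.73, -0.67 and -0.44 at 5000 bases or more, while no other line descends below -0.09, and the highest line is MI vehicle replicate 3.

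The gene calls were recomputed under other treatments of the values. When only transcripts that end within 500 exonic bases of their gene's 3' end were summed, a choice made after seeing the data, the same 5 genes were called lower with prednisone in MI: *Nr3c1* (-0.90), *Nr3c2* (-0.47), *Ncor1* (-0.77), *Ncoa1* (-0.61) and *Ncoa2* (-0.99). After a correction for transcript length in each library, *Nr3c1* (-0.57, limma adjusted p = 0.0072), *Ncor1* (-0.44, limma adjusted p = 0.0351) and *Ncoa2* (-0.79, limma adjusted p = 0.0075) kept their calls, whereas *Nr3c2* (-0.12) and *Ncoa1* (0.01) lost theirs. With the replicate number as a block beside that correction, *Ncor1* was no longer called (limma adjusted p = 0.0604). *Nr3c1*, *Ncor1* and *Ncoa2* were also called after median-ratio rescaling, which centres the median gene, at -0.79, -0.52 and -1.09, while *Nr3c2* was at -0.40 and *Ncoa1* at -0.27, both not called. Using the most abundant transcript of each gene ended the calls of *Nr3c1* (-0.18) and *Ncor1* (-0.38). Fitting only the 6 MI libraries left the changes as they were, with fewer samples for the error, and *Ncor1* (limma adjusted p = 0.0532), *Nr3c2* (0.12) and *Ncoa1* (0.159) then missed the threshold. *Ncoa2* was called under each of these settings. For MI against sham with prednisone the sums of transcripts near the 3' end left 3 of the 6 calls, without *Nr3c1* (-0.50), *Fkbp4* (-0.21) and *Ncor1* (-0.47), the length correction also left 3, without *Nr3c2* (-0.51), *Fkbp4* (-0.54, where the uncorrected value was -0.53; limma adjusted p = 0.0557) and *Ncoa1* (-0.39), and the most abundant transcript left 3, without *Nr3c1* (-0.31), *Fkbp4* (-0.21) and *Ncor1* (0.38). The interaction was not called for any of the 9 genes after the length correction, with *Nr3c1* at -0.57, *Ncor1* at -0.61 and *Ncoa2* at -0.87 (limma adjusted p = 0.0749, 0.0977 and 0.059).

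**Figure D5:**
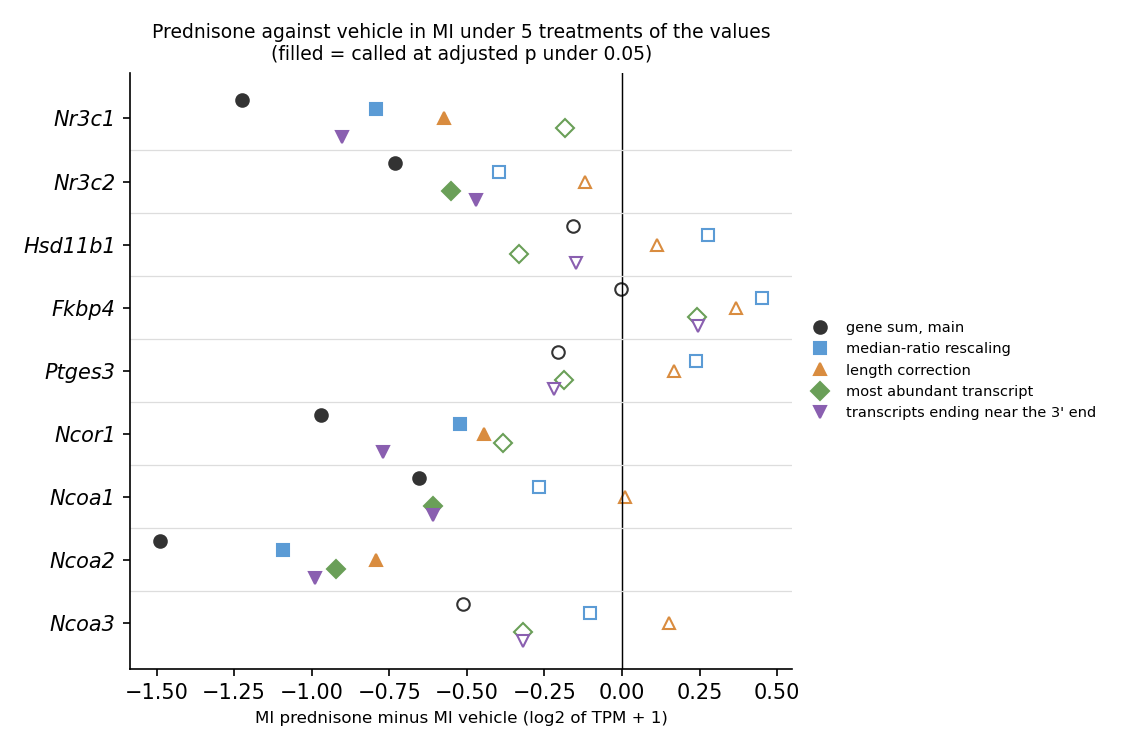
Difference between MI prednisone and MI vehicle (x axis, log2 of TPM + 1) for each gene under 5 treatments of the values (marker shapes), where filled markers passed limma at an adjusted p under 0.05. *Ncoa2* is filled and left of 0 in all 5, *Nr3c1* and *Ncor1* in 4 of them, and *Hsd11b1*, *Fkbp4* and *Ptges3* are open throughout and lie on both sides of 0.

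Receptor target genes were read from a list of 10, all tested, of which 6 were lower and none higher with prednisone in MI, 24 hours after a dose, beside 34.9% lower of all genes. Their median was -0.74 against -0.41 for all genes. *Klf9* fell by 1.82 on the log2 scale (limma adjusted p = 0.000858) and *Per1* by 1.65 (limma adjusted p = 0.00461). In sham hearts none of the 10 was called. *Cdkn1a* was at 6.74, 9.20 and 9.21 TPM in sham vehicle and 21.0, 25.0 and 16.6 TPM in sham prednisone without being called (1.21, limma adjusted p = 0.197). It rose in MI with vehicle (1.45, limma adjusted p = 0.00804), and its interaction was -1.32 (limma adjusted p = 0.0218), which 5 of the 12 libraries ended when left out.

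Markers of other cells were read beside the share of all genes called. That share was 16.0% in MI against sham with vehicle and 16.8% in MI against sham with prednisone. For prednisone in MI it was 37.4%, with 34.9% of all genes lower. All 6 fibroblast markers rose in MI with vehicle and all 6 fell with prednisone in MI, with sums of 326 to 425 TPM in sham vehicle, 349 to 418 in sham prednisone, 704 to 870.2 in MI vehicle and 247 to 422 TPM in MI prednisone. Of 6 macrophage markers, 5 rose and 4 fell in these comparisons, with sums of 83.7 to 107, 95.3 to 121, 155 to 242 and 84.9 to 166 TPM. Of 6 endothelial markers, 4 were higher in MI with vehicle, and 1 was higher and 2 lower with prednisone in MI, with sums of 227 to 252, 240 to 301, 290 to 373 and 278 to 384 TPM. Of 6 smooth muscle and pericyte markers, 3 were higher in MI with vehicle and 2 lower with prednisone in MI, with sums of 166 to 180, 180 to 185, 199 to 281 and 169 to 198 TPM. The 2 of 6 endothelial and 2 of 6 smooth muscle markers lower with prednisone in MI were near the share of all genes lower. Of 6 cardiomyocyte markers, 2 were lower in MI than in sham hearts under either treatment, 3 rose with prednisone in MI, and so did 3 of 4 atrial ones. Adipocyte markers summed to between 16.4 and 1501 TPM and lymphocyte markers to between 7.13 and 236 TPM in the 3 MI vehicle libraries, and none of either list was called. *Nr3c1*, *Hsd11b1* and the cofactors are expressed in several of these cell types, and in bulk tissue fewer cells of a type and less RNA per cell cannot be told apart. The part of cell makeup in the results was not tested.

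Genes whose pattern was most like each member's were taken by Pearson correlation over the 12 libraries of log2(TPM + 1) after subtracting each library's median, among 8115 or 8116 genes of at least 5 TPM. These points share their libraries and the group differences described above, so the values are a description only. *Nr3c1* was most like *Dcaf7*, *Pum2* and *Ndst1* (r = 0.98 for each), *Ncoa2* like *Prrc2b*, *Lnpep* and *Pcm1* (0.99 each), and *Ncor1* like *Ncoa2* (0.97), *Dennd4c* (0.97) and *Tnrc18* (0.96). Among the genes nearest to *Ncoa1* were *5830417I10Rik* (0.96) and *Pde4d* (0.95), and *Fkbp4* was most like *Mmp15*, *Wnk2* and *Kcnk3* (0.98 each). *Nr3c2* was nearest to *Coq8a* and *Etl4* (0.90 each) and *Ap3s2* (0.88), *Hsd11b1* to *Vps51* (0.94), *Gm10925* (0.92) and *Pabpn1* (0.91), and *Ptges3* to *Thumpd3* and *P4ha1* (0.92 each) and *Pnrc1* (0.88). *Ncoa3* had the weakest neighbours, *Chfr* (0.83), *Smg6* (0.78) and *Borcs8* (0.74).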

How the data were processed

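The libraries were stranded mRNA libraries of column-purified RNA, per the labels' protocols. The deposited values are TPM per transcript, in 105129 rows. The authors made them with tools that the submitters' processing notes name as Trimmomatic, HISAT2 and kallisto, with build mm10 and no versions or roles. Values of transcripts that share exons depend on how shared reads were assigned, which is not given in the sources used here. TPM carries no depth, so precision rests on 3 samples a group.

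Rows were summed by symbol, and genes with at least 1 TPM in 3 of 12 libraries were kept. Limma 3.58.1 in R 4.3.3 was fitted to log2(TPM + 1) with an intensity trend and 4 group means, with Benjamini-Hochberg adjustment over all genes and calls at 0.05. Transcript levels were fitted likewise. Shares (mean of 5% to 95% in genes of at least 1 TPM) were fitted as arcsine square roots without a trend. The fits were tested on simulated data. Transcript models and sequences came from the GENCODE M21 annotation of GRCm38, in which 94.7% of rows and all 80 of the members had the same identifier and version. The length correction used the 90.5% of genes with a length.

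Named genes are the 9 members, 6 related genes and, per list and comparison, up to 2 called rises and 2 called falls of at least 5 TPM without overlap (for the interaction, by call and level). Named transcripts have a mean share of at least 10% or a call. Some genes that this rule names are not reported here. The members and lists were chosen with earlier results of these data known. The other settings tried are given at the end. Leaving out single libraries for listed genes that are not members was added after seeing the data.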

Additional observations from a re-analysis of the deposited data

Results flagged for a closer look

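The effect of prednisone differed between infarcted and sham hearts for 3 of the 9 genes, by the test of the difference itself (limma, interaction). On the log2 scale the effect in MI minus that in sham hearts was -1.33 for *Nr3c1*, -1.23 for *Ncor1* and -1.69 for *Ncoa2*, where 21.3% of all genes were called and 20.7% were lower. These calls depended on the treatment of the values. The interaction called 0 of the 9 genes after the length correction, with or without the replicate block, and 0 with the most abundant transcript. For each of the 3 gene sums, all MI prednisone libraries lay below all MI vehicle libraries, and the effect in sham hearts was at most 0.25. These genes were picked by calls on the same libraries, so this is a description and lends no support. With any 1 library left out, each of the 3 interactions stayed called, with limma adjusted p up to 0.0352 for *Nr3c1*, 0.0452 for *Ncor1* and 0.0294 for *Ncoa2*. Groups of 3 are too small for a separate test of outlying samples, so none was made.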

How the results depend on the processing

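Over 11 other settings, chosen with earlier results known except the sums of transcripts near the 3' end, which were chosen after seeing the data, 390 of 486 single-gene values kept their direction and call, 35 lost a call, 3 gained one and 58 turned sign. Of those that turned, 3 had been called: *Ncoa1* with prednisone in MI under both length corrections (0.0103) and *Ncor1* in MI against sham with prednisone for its most abundant transcript (0.38). A pseudocount of 0.1, the fit without an intensity trend and the replicate block changed no call of a gene. The cause of the other changes was not tested. TPM carries no depth, so what sequencing depth limits is unknown.

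The share of all genes (or transcripts) called under the setting stands in brackets. Median-ratio rescaling called 1 gene (*Fkbp4*) in place of 0 in MI against sham with vehicle (7.44%) and 3 in place of 5 for prednisone in MI (28.8%). Removing mitochondrial, nuclear-copy and globin rows called 1 in place of 0 in MI against sham with vehicle (10.4%). The length correction called 1 there (5.15%), 3 in place of 6 in MI against sham with prednisone (12.7%), 3 in place of 5 for prednisone in MI (16.7%) and 0 in place of 3 in the interaction (2.1%, against 21.3%). With the replicate block added it gave 3 (7.97%), 2, without *Ncor1* (11.3%), and 0 (0.815%) in the last 3 comparisons. The most abundant transcript gave 3 (22.3%), 3 (33.0%) and 0 (18.7%), the fit on the 2 groups compared gave 2 for prednisone in MI (6.14%), and transcripts near the 3' end gave 3 in MI against sham with prednisone (13.5%).

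Signs turned after median-ratio rescaling in MI against sham with vehicle for *Nr3c1* (-0.0046), *Ncor1* (-0.08), *Ncoa1* (-0.29) and *Ncoa2* (-0.12), in MI against sham with prednisone for *Ptges3* (0.0864) and *Ncoa3* (0.0399), and for prednisone in MI for *Hsd11b1* (0.28), *Fkbp4* (0.45) and *Ptges3* (0.24). They also turned in sham hearts for *Nr3c2* (-0.0517) and *Ncoa3* (-0.0523) and in the interaction for *Hsd11b1* (0.20) and *Fkbp4* (0.33). Under the length correction, with or without the block, they turned in MI against sham with vehicle for *Ncor1* (-0.0754), *Ncoa1* (-0.30) and *Ncoa2* (-0.10), and with prednisone for *Ncoa3* (0.34). So they did for prednisone in MI for *Hsd11b1* (0.11), *Fkbp4* (0.37), *Ptges3* (0.17), *Ncoa1* (0.0103) and *Ncoa3* (0.15), and in sham hearts for *Nr3c1* (-0.0022), *Nr3c2* (-0.0777) and *Ncoa3* (-0.0871). The interaction turned for *Fkbp4* (0.21) and *Ncoa3* (0.24). With the listed rows removed they turned for *Ncoa1* (-0.13) in MI against sham with vehicle, *Fkbp4* (0.078) with prednisone in MI, and *Nr3c2* (-0.0444) and *Ncoa3* (-0.0454) in sham hearts. With the most abundant transcript they turned in MI against sham with prednisone for *Hsd11b1* (-0.0596), *Ptges3* (0.14), *Ncor1* (0.38) and *Ncoa3* (0.13), for *Fkbp4* with prednisone in MI (0.24) and in the interaction (0.0421), and in sham hearts for *Nr3c2* (-0.24), *Ncor1* (-0.27) and *Ncoa2* (-0.0593). With transcripts near the 3' end they turned for *Ncoa3* in MI against sham with prednisone (0.13), *Fkbp4* with prednisone in MI (0.25) and in the interaction (0.0434), and *Nr3c2* in sham hearts (-0.19).

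Leaving out 1 library at a time gave 0 to 4 genes called in MI against sham with vehicle, 3 to 6 with prednisone, 3 to 6 for prednisone in MI, 3 to 5 in the interaction and 0 in sham hearts. All genes called ranged from 0.912% to 42.8%, 7.81% to 30.2%, 24.7% to 47.7%, 8.44% to 34.4% and 0.0304% to 0.137% in these. Called transcripts ranged from 0 to 2, 7 to 14, 11 to 17 and 7 to 13 in the first 4 of these, and called shares from 9 to 13, 10 to 12 and 4 to 10 in the last 3 of the 4. Signs turned within these ranges for values near 0: *Nr3c2* (-0.23 to 0.0791) and *Ncoa1* (-0.16 to 0.22) in MI against sham with vehicle, *Ptges3* (-0.14 to 0.0611) and *Ncoa3* (-0.18 to 0.12) with prednisone. For prednisone in MI they turned for *Fkbp4* (-0.10 to 0.0636), *Hsd11b1* (-0.35 to 0.18) and *Ptges3* (-0.39 to 0.0098), in sham hearts for *Nr3c2* (-0.0482 to 0.0747) and *Ncoa3* (-0.0129 to 0.092), and in the interaction for *Hsd11b1* (-0.51 to 0.0226). The interaction gained *Nr3c2* without MI prednisone replicate 2 (-0.98) or MI vehicle replicate 3 (-0.90), and *Ptges3* (-0.75) and *Ncoa1* (-0.99) without MI vehicle replicate 1.

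Samples of 1 number did not deviate together, with correlations of their deviations from -0.58 to 0.14. Deviations from means of 3 samples cannot tell whether equal numbers share a batch, and the labels do not say. A fit with the replicate number as a block called 0, 6, 5, 0 and 3 genes in MI against sham with vehicle, the same with prednisone, prednisone in MI, prednisone in sham hearts and the interaction, with 0, 12, 16, 0 and 10 transcripts and 0, 12, 12, 0 and 8 shares.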
